A study of Mus musculus with 6 samples.

Results

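The p160 coactivators and the enzymes that work with them were described here as a group of 10 genes, chosen by symbol: the p160 family (Ncoa1, Ncoa2 and Ncoa3), the acetyltransferases Crebbp, Ep300, Kat2a and Kat2b, the arginine methyltransferases Carm1 and Prmt1, and the Mediator subunit gene Med1. All 10 were among the 16583 genes of the deposited table, and all 10 passed the filter on low counts. The study had knocked out SRC-1, the protein of Ncoa1, in MC38 mouse colorectal cancer cells and asked how SRC-1 raises the checkpoint ligand PD-L1. Bulk RNA sequencing had been done on 3 control libraries, of the genotype Ctrl, and 3 knockout libraries, titled KOSRC-1. Cells of both groups had been exposed to 100 ng per mL of interferon gamma for 24 hours, so no unstimulated cells enter these values.

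The p160 proteins bridge transcription factors and chromatin. A ligand-bound nuclear receptor recruits SRC-1, SRC-2 (Ncoa2) or SRC-3 (Ncoa3) through short leucine-rich motifs, and the p160 protein in turn brings in the acetyltransferases CBP (Crebbp) and p300 (Ep300) and the methyltransferases CARM1 and PRMT1. These enzymes modify histones, and Mediator, docked through MED1, links the receptor to RNA polymerase II. GCN5 (Kat2a) and PCAF (Kat2b) are paralogous acetyltransferases that act in the SAGA and ATAC complexes.

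The libraries held 16329459 to 17207625 expected counts. In log2 CPM (counts relative to the TMM-adjusted library size) the controls correlated with each other at 0.994 to 0.995 across genes, and knockouts 1 and 3 at 0.996. Knockout 2 stood apart, at 0.978 and 0.981 with those 2 libraries. The genotype labels of knockouts 2 and 3 read KOSRC-2 and KOSRC-3 although their titles read KOSRC-1. The last digits of these labels are also the replicate numbers in the titles. Only if the digits name a target do the labels bear on the members, since Ncoa2 and Ncoa3 encode SRC-2 and SRC-3. The titles were followed, and knockout means a library so titled. The labels say neither whether the knockout line was a single clone nor whether the libraries came from separate cultures. The p-values therefore cover the variation among these 6 libraries, which may be technical. Of 12 epithelial and colorectal marker genes, 10 were in the table, and together they reached only 1.14 to 2.13 TPM (abundance per transcript length, scaled to a fixed sum) per library. Cdh1, Krt18, Krt19 and Epcam were listed at 0 TPM in 4 or more of the 6 libraries. Of the fibroblast markers, Col3a1 had 289 to 336 TPM in controls and 469 to 785 TPM in knockouts, and Dcn 306 to 329.6 TPM in controls and 73.3 to 101 TPM in knockouts. Pdgfra had 16.2 to 20.2 TPM in controls and 13.8 to 25.3 TPM in knockouts, and Col1a1, Col1a2 and Thy1 stayed under 0.1 TPM. The endothelial markers summed to at most 0.31 TPM. The 5 immune markers in the table summed to 12.8 to 15.7 TPM in controls and 5.66 to 6.97 TPM in knockouts, nearly all of it Cd68, with Cd3e at 0 in all but 1 library. The part of these differences in the results below was not tested, and in bulk RNA fewer cells of a kind and less RNA per cell cannot be told apart.

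The coactivator genes spanned a wide range of levels in the control cells. Per length, Prmt1 stood highest at 411 ± 9.09 TPM (SD, n = 3), followed by Carm1 at 92.4 ± 2.08, Kat2a at 75.5 ± 2.499, Med1 at 30.1 ± 2.16 and Ep300 at 18.1 ± 0.342 TPM. Ncoa3 was at 14 ± 0.274, Kat2b at 12.9 ± 1.01, Ncoa2 at 6.56 ± 0.319 and Crebbp at 4.85 ± 0.335 TPM. Ncoa1, the targeted gene, was the lowest of the 10 at 3.46 ± 0.0379 TPM. The methyltransferases and Kat2a were thus far more abundant as mRNA than the p160 genes and CBP. No control value of any of these genes overlapped that of its neighbour in this order. In the knockout libraries several neighbours did overlap, among them Crebbp (6.16 to 12.8 TPM) and Ncoa2 (3.99 to 11.8 TPM).

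Knocked-out cells were compared with controls by edgeR's quasi-likelihood test on the rounded counts, and a gene is called, risen or fallen here when its p, adjusted by Benjamini-Hochberg over all 11656 genes tested, is under 0.05. Crebbp and Kat2b rose, no member fell, and 8 were not called. Over all genes tested, 17.1% were called higher and 18.5% lower, 35.7% in all, so 2 of 10 higher lies near the share over all genes. The median log2 fold change of the 10 genes was 0.08, against 0.02 over all genes. The groups did not overlap for Crebbp and Kat2b, with all knockouts above, and for Ncoa1 and Carm1, with all knockouts below. Among all tested genes the shares without overlap were 24.8% above and 26.5% below, 51.4% together.

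**Figure D1:**
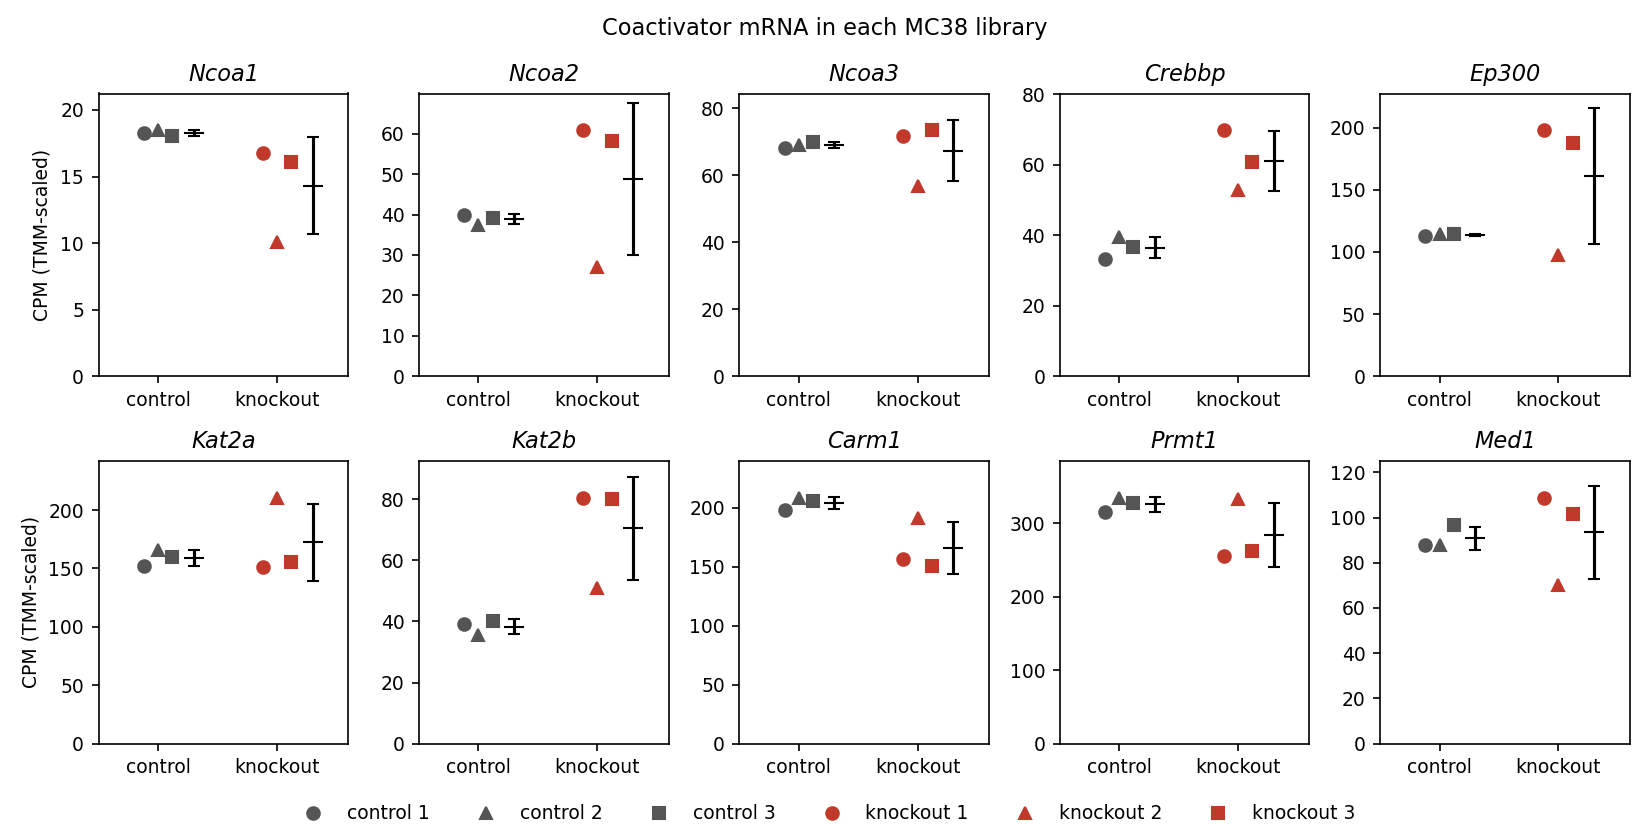
Level of the 10 coactivator genes in each library, in CPM (library-size scaled counts, TMM) on linear axes from 0. Points are libraries and bars show mean ± SD of 3 libraries. Knockout 2 (red triangle) lies outside the range of knockouts 1 and 3, below for the long genes such as Ncoa2 (27.1 against 60.8 and 58.3 CPM) and above for Kat2a (210.4 against 151 and 156 CPM). For Crebbp the knockouts are spaced more evenly (69.8, 52.7 and 60.9 CPM).

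Ncoa1 mRNA was still present in each knockout library. Ncoa1 (gene 17977, GRCm38.p6 chromosome 12, 4247362 to 4477206) encodes SRC-1 and had 313, 312 and 304 counts in the controls and 280, 167 and 275 in the knockouts. Scaled, these were 18.2, 18.5 and 18.0 CPM in controls 1, 2 and 3 and 16.7, 10.1 and 16.1 CPM in knockouts 1, 2 and 3. All 3 knockouts lay below all 3 controls, 2 of them narrowly. The log2 fold change was -0.35 (SE 0.184, 95% interval -0.78 to 0.08, edgeR adjusted p = 0.179), and -0.15 (edgeR adjusted p = 0.108) without knockout 2. The table gives a single value per gene, so it does not show which exons the remaining reads came from, and Ncoa1 mRNA does not by itself check the labels. Per length even the order turned: knockout 1 had 3.72 TPM, above every control (3.42 to 3.49 TPM), knockout 3 had 3.48 TPM and knockout 2 had 1.69 TPM.

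The promoters of the targeted gene and of both genes that rose are shown for their contrast in base composition. They are windows from 250 bases before to 50 bases after a listed start, on GRCm38.p6. These starts need not be the ends of the gene spans given here. The Crebbp window lies wholly within the span of its gene (4081334 to 4213957). Capitals mark the GC box GGGCGG, searched on both strands. The Ncoa1 window (chr12:4477133-4477432, minus strand) has 84.7% G or C, 49 CpG dinucleotides and 7 GC boxes. The Crebbp window (chr16:4213355-4213654, minus strand) has 82.0% G or C, 49 CpG and 2 overlapping GC boxes. The first of 2 Kat2b windows (chr17:53566721-53567020, plus strand) has 47.0% G or C, 11 CpG and no GC box, so nothing in it is in capitals. Over all 32851 windows the medians were 52.7% G or C and 7 CpG.
Ncoa1 promoter: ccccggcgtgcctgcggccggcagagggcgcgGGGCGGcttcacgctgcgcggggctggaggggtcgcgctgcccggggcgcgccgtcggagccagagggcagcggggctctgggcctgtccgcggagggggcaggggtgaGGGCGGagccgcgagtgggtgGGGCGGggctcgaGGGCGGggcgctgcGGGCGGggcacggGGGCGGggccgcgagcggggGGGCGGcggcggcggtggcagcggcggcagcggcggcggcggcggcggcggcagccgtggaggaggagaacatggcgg
Crebbp promoter: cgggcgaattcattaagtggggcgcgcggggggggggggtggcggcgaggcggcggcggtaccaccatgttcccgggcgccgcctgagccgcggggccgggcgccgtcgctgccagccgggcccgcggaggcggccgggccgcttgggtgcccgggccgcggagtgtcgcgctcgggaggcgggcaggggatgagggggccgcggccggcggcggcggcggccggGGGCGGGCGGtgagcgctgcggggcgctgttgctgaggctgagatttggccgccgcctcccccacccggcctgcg
Kat2b promoter: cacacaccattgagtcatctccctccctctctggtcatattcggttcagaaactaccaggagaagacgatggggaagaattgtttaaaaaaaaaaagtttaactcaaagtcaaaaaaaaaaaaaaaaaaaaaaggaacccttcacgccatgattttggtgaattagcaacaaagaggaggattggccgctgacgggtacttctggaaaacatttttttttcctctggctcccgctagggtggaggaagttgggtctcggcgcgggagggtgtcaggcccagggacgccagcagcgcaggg
GC boxes were in 5 of the 8 windows found for 7 members, and in 35.7% of all windows. The letters TTCNNNGAA of the STAT site were in 8.30% of all windows, the core of the interferon response element (GAAA, any 2 bases, GAAA) in 3.44% and the nuclear receptor half-site AGGTCA in 16.3%, each on both strands. No window of a member held any of these 3, which says only that the letters are not in these 300 bases.

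The other p160 genes split by library. Ncoa2 (gene 17978, chromosome 1, 13139105 to 13374227) encodes SRC-2, the p160 protein known as GRIP1 for its work with the glucocorticoid receptor. Controls 1, 2 and 3 held 39.9, 37.4 and 39.2 CPM of it, knockouts 1 and 3 held 60.8 and 58.3 CPM, and knockout 2 held 27.1 CPM. Knockouts 1 and 3 were above every control and knockout 2 below every control, so the groups overlapped. The low library is the one whose genotype label reads KOSRC-2, with 2 also its replicate number. For Ncoa2 its difference from knockouts 1 and 3 lay at percentile 1.24 among tested genes of known length, ordered from the most negative. Ep300 was at percentile 2.37 and Ncoa1 at 7.10 in the same order. Such differences ran along transcript length, as described below. With length and GC trends removed, the log2 difference was -0.69 for Ncoa2, -0.57 for Ep300 and -0.31 for Ncoa1. Whether the label names a target or a replicate was not tested. The log2 fold change was 0.33 (SE 0.278, edgeR adjusted p = 0.39), with an interval from -0.33 to 0.98 on both sides of 0. Without knockout 2 Ncoa2 was called higher, by 0.62 (interval 0.50 to 0.74, edgeR adjusted p = 7.54e-10). That fit rests on knockouts 1 and 3, which correlated at 0.996, and it called 69.6% of all genes.

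Ncoa3 (gene 17979, chromosome 2, 165992637 to 166073242) encodes SRC-3, also called AIB1 in human breast cancer, where its gene is amplified. It had 68.1, 69.0 and 69.9 CPM in the controls and 71.7, 56.8 and 73.4 CPM in the knockouts. As for Ncoa2, knockouts 1 and 3 lay above the controls and knockout 2 below, but by small amounts. Knockout 3, whose genotype label reads KOSRC-3, had the highest Ncoa3 value of all 6 libraries in CPM. In TPM knockout 1 was highest (17.5 against 17.4). The change was -0.04 (interval -0.29 to 0.22, edgeR adjusted p = 0.818), and its sign turned to 0.07 without knockout 2.

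Within each knockout library, Ncoa1 made up a smaller share of the p160 TPM than in any control. Ncoa1 made up 14.3, 14.7 and 14.3% of the summed p160 TPM in the controls and 11.3, 10.7 and 10.9% in the knockouts. This share was close to equal in knockout 2 and the other knockouts, although the sum itself was 33.0, 15.8 and 32.0 TPM in knockouts 1, 2 and 3 against 23.3 to 24.4 TPM in controls. The share of Ncoa2 split by library, at 35.7, 25.3 and 35.0% in knockouts 1, 2 and 3 against 26.6 to 27.8% in controls. The ratio of Ncoa2 to Ncoa1 was 1.94, 1.81 and 1.93 in controls and 3.17, 2.36 and 3.22 in knockouts. The ratio of Ncoa3 to Ncoa1 was 4.04, 4.003 and 4.08 in controls and 4.71, 5.99 and 4.99 in knockouts. Neither ratio overlapped between the groups, with mean log2 differences of 0.61 and 0.36. Each gave p = 0.1 by a two-sided exact permutation test, the smallest that 3 against 3 allows, and 0.125 adjusted over the 5 pairs compared.

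**Figure D2:**
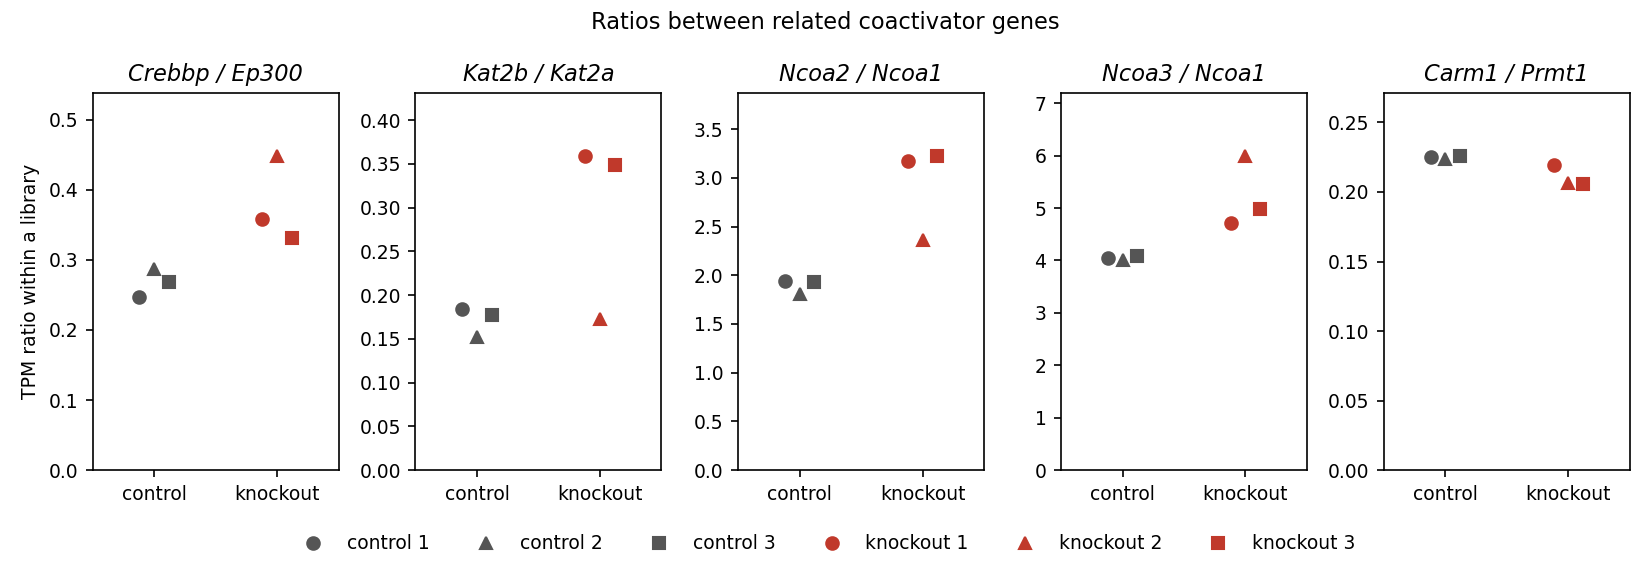
Ratio of TPM between related coactivator genes within each library, on linear axes from 0. Points are libraries. For Ncoa2 over Ncoa1 and Ncoa3 over Ncoa1 all 3 knockouts lie above all 3 controls, whereas for Kat2b over Kat2a knockout 2 (0.173) lies among the controls (0.153 to 0.185).

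CBP and p300 are paralogs with closely related acetyltransferase domains, and both mRNAs were higher in knockouts 1 and 3. Crebbp (gene 12914, chromosome 16, 4081334 to 4213957) rose 1.67-fold. It went from 33.4, 39.4 and 36.7 CPM in the controls to 69.8, 52.7 and 60.9 CPM in the knockouts, with no overlap. The log2 fold change was 0.74 (SE 0.123, interval 0.46 to 1.03, edgeR adjusted p = 0.00375), and Crebbp was called in each of the 18 other settings that were run. The 355 tested genes of chromosome 16 had a median log2 fold change of 0.23. The 19 tested genes nearest to Crebbp had a median of 0.14, with 5 of them called, beside 35.7% of all tested genes. Around Ncoa3, Kat2a and Ep300, which were not called, the medians of the nearest genes were larger, at 0.29, 0.27 and 0.25. Their whole chromosomes had lower medians than chromosome 16, at -0.04, 0.01 and 0.10. The part of the shift of chromosome 16 in the rise of Crebbp was not tested.

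Ep300 (gene 328572, chromosome 15, 81586209 to 81652077) had 113, 114 and 115 CPM in controls 1, 2 and 3. Knockouts 1 and 3 reached 198 and 188 CPM and knockout 2 only 97.9 CPM. The controls were nearly equal, and knockout 2 fell on the other side of them from the other knockouts. With all libraries the log2 fold change was 0.50 (SE 0.242, interval -0.07 to 1.07, edgeR adjusted p = 0.148). Without knockout 2 it was 0.76 (interval 0.66 to 0.85, edgeR adjusted p = 1.03e-13), beside 0.84 for Crebbp in the same fit. The narrow interval rests on knockouts 1 and 3, which correlated at 0.996, in a fit that called 69.6% of all genes. Whether Crebbp and Ep300 differed in their response depended on the unit. As TPM, Crebbp over Ep300 was 0.247, 0.287 and 0.268 in controls and 0.359, 0.448 and 0.331 in knockouts (log2 difference 0.50, two-sided exact permutation p = 0.1, the smallest possible). Without knockout 2 that difference was 0.37 in TPM but 0.08 in CPM, and TPM divides by a length for Crebbp that differed between libraries, as described below, whereas CPM divides by none.

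Of the paralogs GCN5 and PCAF, the gene of PCAF was called and that of GCN5 was not. Kat2b (gene 18519, chromosome 17, 53566774 to 53672721), which encodes PCAF, rose 1.84-fold. This was the largest change of the 10 in CPM, whereas on the TPM and FPKM scales Crebbp changed more. It had 39.2, 35.5 and 40.1 CPM in the controls and 80.4, 50.9 and 79.9 CPM in the knockouts, so even knockout 2 was above every control. The log2 fold change was 0.88 (SE 0.179, interval 0.46 to 1.30, edgeR adjusted p = 0.00882). Of 18 other settings, 16 called it, the exceptions being limma on log2(TPM + 1) and on log2(TPM + 0.1), with adjusted p of 0.0512 and 0.0511. The 20 nearest tested genes had a median log2 fold change of 0.02.

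Kat2a (gene 14534, chromosome 11, 100704746 to 100712485), which encodes GCN5, had 152, 166 and 159 CPM in its controls and 151, 210.4 and 156 CPM in its knockouts. Knockout 1 was just under the controls, knockout 3 among them and knockout 2 well above. The change was 0.12 (interval -0.20 to 0.43, edgeR adjusted p = 0.523) and turned to -0.05 without knockout 2. Kat2b made up 13.2 to 15.6% of the summed Kat2a and Kat2b TPM in the controls, 26.4 and 25.9% in knockouts 1 and 3, and 14.7% in knockout 2. The ratio Kat2b over Kat2a therefore overlapped between the groups (log2 difference 0.71, two-sided exact permutation p = 0.3, and 1.05 without knockout 2).

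The methyltransferase genes were lower in most knockout libraries. Carm1 (gene 59035, chromosome 9, 21546894 to 21589467), whose product methylates histone H3 and CBP itself, had 198, 208 and 206 CPM in the controls and 157, 191 and 150.3 CPM in the knockouts. The groups did not overlap, and knockout 2 lay closest to the controls. The log2 fold change of -0.30 (SE 0.102, interval -0.54 to -0.06) just missed the threshold (edgeR adjusted p = 0.0591). It was called lower in 9 of the 18 other settings, with adjusted p between 4.02e-09 and 0.179 over all of them. Per length it was 90.4, 92.2 and 94.5 TPM in controls and 81.1, 76.4 and 75.9 TPM in knockouts.

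Prmt1 (gene 15469, chromosome 7, 44976755 to 44986420) encodes the main enzyme of asymmetric arginine dimethylation. Controls held 315, 334 and 327 CPM and knockouts 255, 333 and 262 CPM, with knockout 2 inside the control range. The log2 fold change was -0.20 (interval -0.46 to 0.07, edgeR adjusted p = 0.208), and -0.33 (edgeR adjusted p = 3.7e-07) without knockout 2. The fit without knockout 2 called 69.6% of all genes. In TPM the knockouts were nearly equal, at 369.6, 370.6 and 369.1, all under the controls at 401, 412 and 419 TPM. Carm1 over Prmt1 differed little, with a log2 difference of -0.10 (two-sided exact permutation p = 0.1, the smallest possible), and no overlap between controls (0.224 to 0.226) and knockouts (0.206 to 0.220).

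Med1 (gene 19014, chromosome 11, 98152154 to 98193313), the Mediator subunit that binds nuclear receptors, had 87.7, 87.9 and 96.8 CPM in the controls. Knockouts 1 and 3 were above them, at 109 and 101 CPM, and knockout 2 was below, at 70.2 CPM. The change was 0.04 (interval -0.33 to 0.42, edgeR adjusted p = 0.861), with 0.21 without knockout 2 (edgeR adjusted p = 0.00113), where 69.6% of all genes were called.

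Most members shared their pattern over the knockouts with another member. Ncoa2, Ncoa3, Ep300 and Med1 were above every control in knockouts 1 and 3 and below every control in knockout 2, a pattern of 9.58% of all tested genes. Crebbp and Kat2b were above the controls in all knockouts and Ncoa1 and Carm1 below in all, patterns of 24.8% and 26.5% of all tested genes. Prmt1 was below every control in knockouts 1 and 3 and within the controls in knockout 2, a pattern of 4.79% of all genes. Kat2a alone had a knockout on either side of the controls with the other between them.

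The split of the knockout libraries ran along transcript length. Among tested genes in the longest quartile (4862 bases or more in the longest GENCODE transcript), the median log2 level in knockout 2 was 0.36 below the mean of knockouts 1 and 3. In the shortest quartile (up to 2267 bases) it was 0.35 above. Against the controls, the longest quartile lay at medians of 0.26, -0.13 and 0.22 in knockouts 1, 2 and 3. Of the coactivator genes 6 fall in the longest quartile: Crebbp (10820 bases), Ep300 (9566), Ncoa2 (8171), Med1 (8024), Ncoa3 (7531) and Ncoa1 (7329). Their log2 levels in knockout 2 were lower than in knockouts 1 and 3 by differences of -0.31 (Crebbp), -0.98 (Ep300), -1.13 (Ncoa2), -0.58 (Med1), -0.35 (Ncoa3) and -0.69 (Ncoa1). Prmt1 (2147 bases), Kat2a (3269) and Carm1 (3585) were higher in knockout 2, by 0.37, 0.45 and 0.32. Kat2b (4653 bases) was lower, at -0.65. All these lengths are of the longest annotated transcript. For Med1 the length implied by the deposited values, described below, was 3953 to 4581 bases, under the 4862 of the longest quartile.

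**Figure D3:**
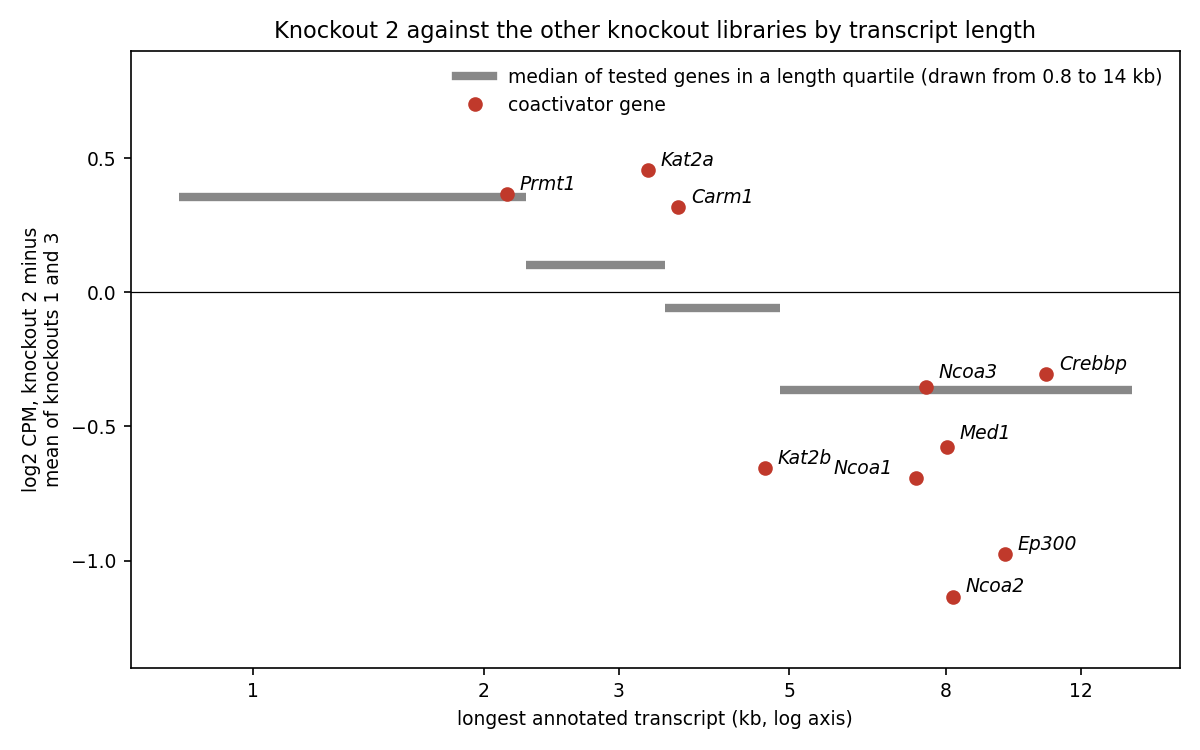
Difference in log2 CPM between knockout 2 and the mean of knockouts 1 and 3, against the longest annotated transcript of each gene in kilobases on a log axis. Red points are the 10 coactivator genes and grey bars the medians of all tested genes in each length quartile, which run from 0.35 in the shortest to -0.36 in the longest. Genes with long transcripts, Ncoa2 lowest of them at -1.13, lie below 0, and Prmt1, Kat2a and Carm1 lie above.

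Each library's trends in length and GC content, fitted over all genes, were therefore removed in an alternative fit. The trends were deviations from the mean of all 6 libraries. Removing them thus also takes out a shift of long genes between knockouts and controls. In that fit Ncoa1 was called lower, by 0.45 on the log2 scale (log2 fold change -0.45, interval -0.67 to -0.22, edgeR adjusted p = 0.00621). Its adjusted levels were 18.7, 19.3 and 18.3 CPM in controls and 14.7, 11.8 and 14.6 CPM in knockouts, so knockout 2 remained the lowest. Before adjustment the knockouts had 16.7, 10.1 and 16.1 CPM. Crebbp (0.60) and Kat2b (0.87) were called higher and Carm1 (-0.34) lower, with edgeR adjusted p of 0.000689, 0.000737 and 0.00138. In this fit 28.8% of all genes were called higher and 22.8% lower (51.5% together), against 2 and 2 of the 10 members. Adjusted Crebbp was 58.8, 61.2 and 54.0 CPM in the knockouts, with knockout 2 no longer the lowest. Ncoa3, at 63.0, 64.8 and 66.7 CPM, was now below the controls (70.3 to 72.0 CPM) in every knockout, but its change of -0.14 was not called (edgeR adjusted p = 0.056). Ncoa2 and Ep300 still divided, at 32.3 and 113 CPM in knockout 2 against 51.9 to 52.3 and 167 to 169 CPM in the others.

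Without knockout 2 the fit called 69.6% of all genes, 34.6% higher and 35.0% lower. Of the members 5 were called higher (Ncoa2, Crebbp, Ep300, Kat2b and Med1) and 2 lower (Carm1 and Prmt1). With knockout 2 left out and the trends removed as well, a setting added after these values were seen, Ncoa2 (0.39), Crebbp (0.57), Ep300 (0.51) and Kat2b (1.0004) were called higher. Ncoa1 (-0.35), Ncoa3 (-0.13), Carm1 (-0.38) and Prmt1 (-0.12) were called lower, in a fit that called 37.2% of all genes higher and 31.5% lower, 68.6% together. Kat2a (0.01) and Med1 (-0.03) were not called there.

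**Figure D4:**
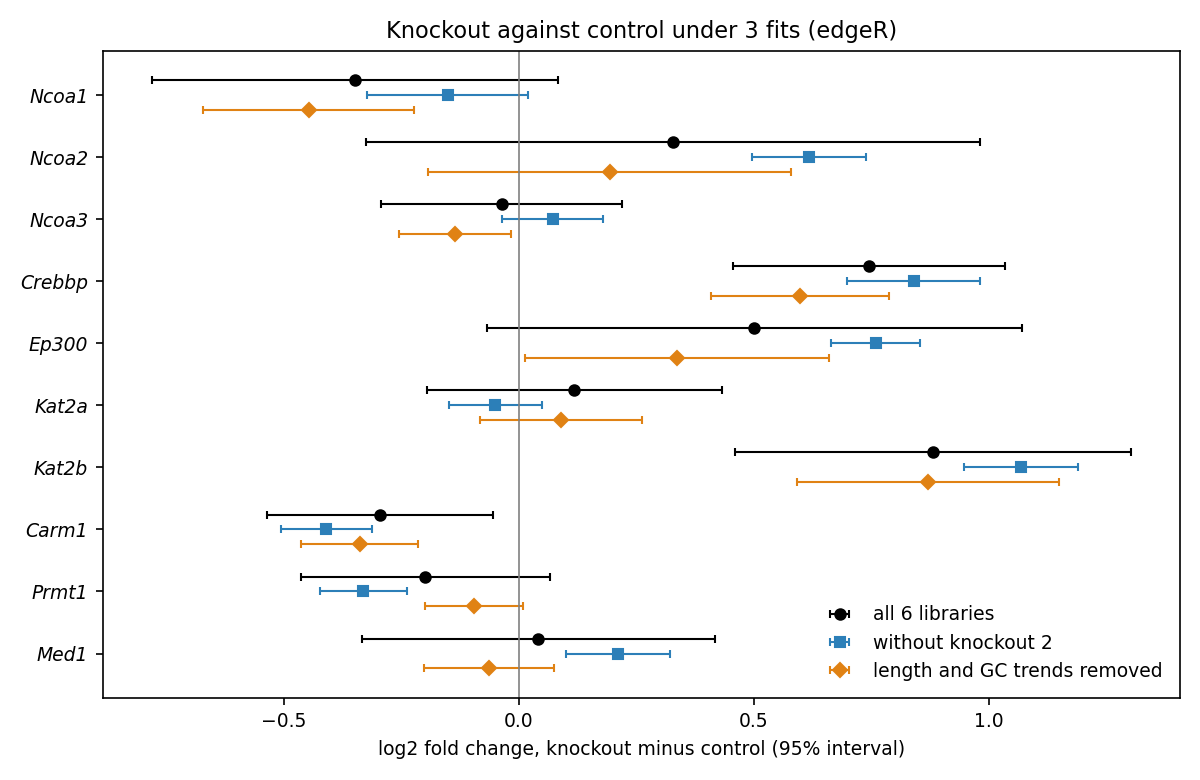
Log2 fold change of each coactivator gene, knockout minus control, with 95% intervals from 3 edgeR fits: all 6 libraries (black circles), without knockout 2 (blue squares), and all libraries with length and GC trends removed (orange diamonds). Crebbp, Kat2b and Carm1 keep their side of 0 with intervals clear of it in all 3 fits. Ncoa2 and Ep300 have wide intervals in the fit of all libraries (up to 0.98 and 1.07) and narrow ones without knockout 2. Ncoa3, Kat2a and Med1 lie on different sides of 0 in different fits.

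The deposited values carried a further difference for Crebbp and Med1. The length by which the authors' FPKM divides a gene's reads can be recovered from its count, its FPKM and the library's total. For Crebbp this implied length was 10085 to 10096 bases in the controls and 10103 bases in knockout 2, but 8329 and 8306 bases in knockouts 1 and 3, or 82.6 and 82.3% of the control mean. For Med1 it was 3953 to 4133 bases in the controls, 4005 in knockout 2, and 4581 and 4432 in knockouts 1 and 3. A departure of over 10% from the control mean was found in 4.32 and 4.18% of 9307 genes in knockouts 1 and 3, in 1.09% in knockout 2 and in at most 0.129% in any control. Ncoa3 was at 94.6 and 95.6% and Kat2b at 104.5 and 104.2% in knockouts 1 and 3, whereas Ep300, Kat2a, Carm1 and Prmt1 stayed within 1% in every library. Dividing by a shorter length gives a higher TPM for the same reads. Crebbp had 12.8 and 10.96 TPM in those libraries, 6.16 TPM in knockout 2 and 4.47 to 5.11 TPM in controls, and its CPM differed as well. A change in which transcripts of Crebbp are made and a change in how reads were assembled or assigned to them cannot be told apart in gene-level values.

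**Figure D5:**
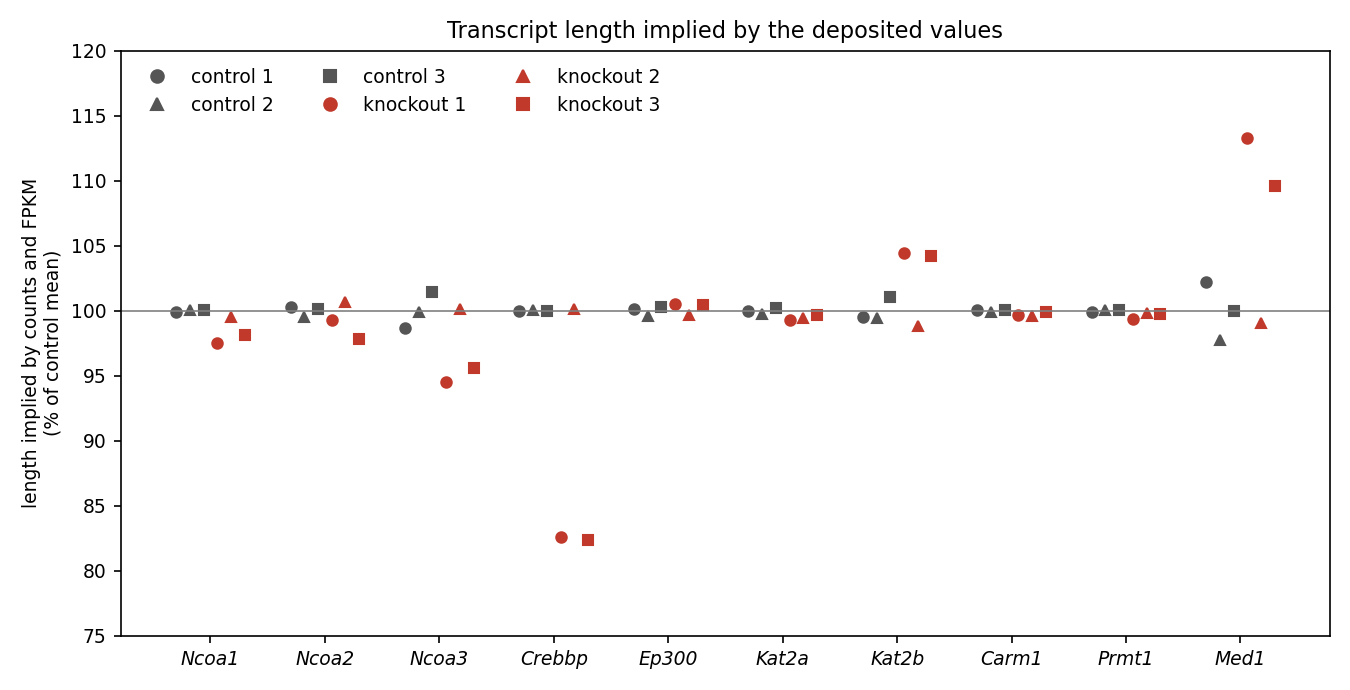
Length implied by each library's count and FPKM for the 10 coactivator genes, as a percentage of the control mean, on an axis from 75 to 120%. Points are libraries. Crebbp in knockouts 1 and 3 lies at 82.6 and 82.3% and Med1 at 113.3 and 109.6%, while knockout 2 lies with the controls for both.

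The genes most like the members over the 6 libraries were found by the root mean square difference of log2 CPM centred on each gene's mean, among 8872 genes with a mean of at least 10 CPM. For Ncoa1 these included Herpud2 (0.025) and Rbms1 (0.028). Herpud2 had 34.3, 34.2 and 32.5 CPM in controls and 30.7, 18.4 and 28.8 CPM in knockouts, chosen for this likeness and lowest in knockout 2 as Ncoa1 was. For Ncoa2 they were Zfp644 (0.028), Ubr1 (0.030) and Bdp1 (0.035). For Crebbp they were Hspg2 (0.047), Tnrc18 (0.053) and Arhgap23 (0.062), and for Kat2b Tent5a (0.042), Slc12a2 (0.044) and Zzef1 (0.047).

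Related genes were counted by family, to be read against the shares over all genes given above: 17.1% higher and 18.5% lower with all libraries, 34.6% and 35.0% without knockout 2, and 28.8% and 22.8% with the trends removed. Among arginine methyltransferases and their partners, of 12 tested (Prmt1 and Carm1 not counted), 8 fell, 0 rose and 4 were not called, with a median log2 fold change of -0.38. The 8 were 4 enzymes and 4 partners. Prmt7 had 84.4 ± 6.11 CPM in controls and 48.8 ± 9.70 CPM in knockouts (SD, n = 3 each), a 1.73-fold fall (edgeR adjusted p = 0.00575). Prmt3, which methylates a ribosomal protein, fell 1.42-fold. Prmt5, the main enzyme of symmetric dimethylation, fell 1.26-fold, and its partners Wdr77 (MEP50) and Riok1 fell 1.33-fold and 1.55-fold. Prmt9 fell 1.28-fold. The PRMT1-binding antiproliferative genes Btg1 and Btg2 fell 1.45-fold and 2.68-fold. Btg2 had 26.1 ± 1.49 CPM in controls and 9.72 ± 0.933 CPM in knockouts (edgeR adjusted p = 0.00014). Prmt2 (0.23) and Prmt6 (0.25) had positive values that were not called. Without knockout 2, 10 were lower and 1 higher, and with the trends removed 8 were lower and 1 higher.

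Subunits of the complexes around the members went both ways. Of 28 SAGA and ATAC subunits 3 rose, 4 fell and 21 were not called (median 0.0049). Without knockout 2, 11 were higher and 11 lower, and with the trends removed 7 and 5. Tada1 rose 1.58-fold, while the adaptor gene Tada2a, which binds GCN5 and PCAF, fell 1.65-fold (55.3 ± 1.86 CPM in controls, 33.4 ± 3.38 CPM in knockouts, edgeR adjusted p = 0.00137). Wdr5 fell 1.48-fold. Of 17 other genes of acetyltransferases and related proteins 2 rose (Naa40 and Taf1), 2 fell (Cdyl2 and Nat10) and 13 were not called (median 0.20). Without knockout 2, 8 were higher and 5 lower, and with the trends removed 7 and 3. Naa40, which acetylates the N terminus of histones, rose 1.26-fold and Nat10, an RNA acetyltransferase, fell 1.598-fold. Cdyl2 had 90 counts summed over the controls and 4 over the knockouts, a 22.2-fold lower level with a 95% counting interval from 8.37-fold to 83.2-fold. That interval covers counting alone and not variation between libraries. The edgeR estimate was a 20.4-fold fall (edgeR adjusted p = 0.00101).

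Of 32 other Mediator genes 5 rose, 5 fell and 22 were not called (median -0.04). Without knockout 2, 7 were higher and 13 lower, and with the trends removed 8 and 6. Cdk19 rose 2.18-fold, with 15.02 ± 1.81 CPM in controls and 32.8 ± 8.14 CPM in knockouts (edgeR adjusted p = 0.00484), while its paralog Cdk8, the kinase of the same Mediator module, fell 1.21-fold. Med16 rose 1.51-fold and Med26, a subunit that contacts elongation factors, fell 1.49-fold. Of 37 other nuclear receptor coregulators 8 rose, 2 fell and 27 were not called (median 0.03). Hexim1, an inhibitor of the elongation kinase P-TEFb, rose 1.76-fold and Smarca4, the BRG1 ATPase of SWI/SNF, rose 1.52-fold. Ascc2 fell 1.68-fold. Without knockout 2, 15 coregulators were higher and 10 lower, and with the trends removed 11 and 5.

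Histone deacetylases and sirtuins remove acetyl groups that acetyltransferases add. Of 16 histone deacetylases and sirtuins tested, 6 rose, 1 fell and 9 were not called (median 0.06). The class IIa genes divided, with Hdac7 and Hdac5 1.49-fold and 1.38-fold higher and Hdac4 1.86-fold lower (29.7 ± 2.08 CPM in controls, 16.0 ± 1.998 CPM in knockouts, edgeR adjusted p = 0.00145). Without knockout 2, 7 were higher and 6 lower, and with the trends removed 7 were higher and 1 lower.

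Of 23 nuclear receptors that p160 proteins bind, 19 were in the table and 13 passed the filter. Of these, 4 rose (Vdr, Thra, Nr3c1 and Nr3c2), 2 fell (Esr1 among them) and 7 were not called (median 0.08). Without knockout 2, 5 were higher and 6 lower, and with the trends removed 4 and 4. Vdr, the vitamin D receptor gene, rose 2.62-fold, from a mean of 7.88 ± 0.367 CPM to 20.6 ± 1.67 CPM (edgeR adjusted p = 0.00014), and Thra, a thyroid hormone receptor gene, rose 1.67-fold. The glucocorticoid receptor gene Nr3c1 averaged 88.5 ± 5.36 CPM in controls and 127 ± 29.2 CPM in knockouts, with overlapping groups (edgeR adjusted p = 0.0468). Esr1, the estrogen receptor gene, was low in both groups, at 4.36 ± 0.425 and 1.75 ± 0.334 CPM.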

How the data were processed

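RNA sequencing of 6 MC38 libraries was analysed. The deposited table holds 16583 genes with expected counts, FPKM and TPM per library, and per the file headers all were made by the authors. Only 88.9% of the deposited expected counts are whole. Tools named without a version in the submitters' processing notes are HISAT2, StringTie and SAMtools, with the build GRCm38.p6, and the quantifying program was not given in the sources used here. Their library kit is not stated to mark strand, so reads of overlapping antisense genes cannot be told apart.

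Expected counts were rounded and filtered with filterByExpr (minimum count 10, minimum total 15), which left 11656 genes. They were tested with edgeR 4.0.16 in R 4.3.3 (TMM scaling, robust quasi-likelihood, two-sided). Intervals cover 95%. DESeq2 1.42.0 and limma 3.58.1 on log2(TPM + 1), log2(TPM + 0.1) and log2(FPKM + 1), for genes with a mean of at least 1, were alternatives. Trends were natural splines with 5 degrees of freedom in log length and GC content of the longest GENCODE transcript, known for 98.0% of tested genes, and entered as offsets. Gene coordinates are RefSeq's and 16531 gene IDs matched. The test was checked on simulated counts that held neither a library standing apart nor library trends in length or GC content. That check therefore does not show how the fits handle these features. Precision rests on 16329459 to 17207625 counts per library and 3 libraries per group.

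The members, the lists of related genes and the rule for named genes were chosen with earlier results of these data known. From each list up to 3 called genes with the smallest adjusted p are named, and others named in the text were chosen after their values were seen. For Ncoa1, Ncoa2, Crebbp and Kat2b the 3 most alike genes are named, leaving out unnamed gene models. Some genes that these rules name are not reported here. Replicate numbers were not taken to pair the libraries, since the labels do not say that they do. Implied length is the count divided by FPKM and by the library total, rescaled to bases, for genes with at least 100 counts in every library and an FPKM of at least 1. The group averages in the table were not used.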

Additional observations from a re-analysis of the deposited data

How the results depend on the processing

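Crebbp kept its direction and call in all 18 alternatives run. Kat2b kept its direction in all and lost its call in 2 of them (limma on TPM). Ncoa1 stayed lower in all 18, and was called with length and GC trends removed (-0.45), with those trends removed and a replicate block (-0.45), and with the trends removed and knockout 2 left out (-0.35). Leaving out 1 library moved it between -0.47 (without knockout 1) and -0.15 (without knockout 2).

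The number of members called higher, 2 in the fit of all libraries, was 1 with limma on log2(TPM + 1) or log2(TPM + 0.1). It was 4 with the trends removed and knockout 2 left out, and 2 to 5 when 1 library was left out. Of all genes, limma on either TPM scale called 13.1% higher. The share was 37.2% with the trends removed and knockout 2 left out, and 8.79 to 34.6% when 1 library was left out. The number called lower, 0 in the fit of all libraries (with 1 member, Carm1, lower at an unadjusted p under 0.05), was 1 with DESeq2, limma on FPKM or the replicate block, which called 19.6, 19.3 and 19.2% of all genes lower. It was 2 with limma on either TPM scale (14.4 and 14.2% of all genes) and with the trends removed, without or with the block (22.8 and 23.5%). It was 4 with the trends removed and knockout 2 left out (31.5%), and 0 to 2 when 1 library was left out (11.5 to 35.0%). Genes called over the whole table, 4157, ranged from 2406 (without control 2) to 8208 (without knockout 2) when 1 library was left out, and were 8091 with the trends also removed.

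The sign of small changes turned. Ncoa3 was at 0.055 on both TPM scales with limma, at 0.0063 on FPKM, and between -0.11 and 0.072 with 1 library left out. Kat2a ranged from -0.050 to 0.20 with 1 library left out. Med1 was at -0.027 and -0.029 on the TPM scales, -0.075 on FPKM, -0.064 with the trends removed with or without the block, -0.025 with the trends removed and knockout 2 left out, and -0.080 to 0.21 with 1 library left out. The causes were not tested. The 5 ratios kept their sign in CPM, FPKM and without knockout 2.

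The labels do not say that replicate numbers mark pairs, so the numbers were not taken as pairs. Same-numbered libraries correlated in their deviations from the group means at 0.161, 0.261 and 0.0401. Differently numbered libraries were not set beside them, so these values do not decide whether the numbers mark pairs. The replicate block called 4337 genes and gave Ncoa1 -0.37, and it called Carm1 (-0.30) in addition to Crebbp and Kat2b. Ncoa1 had the fewest counts of the members, with 167 to 313 per library.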
